A study of Mus musculus with 8 samples.

Results

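Son, Srrm2, Srrm1, Tra2a, Tra2b, Sfpq and Ncl are 7 mouse genes for proteins of nuclear speckles, splicing control, paraspeckles and the nucleolus. They are 7 of the 10609 genes named in the deposited lists of N6-methyladenosine (m6A) sites, and they hold 172 of the 85953 sites in those lists. The genes were selected on measured values of these libraries: site levels, sites lost, kept or higher after Virma knockdown, gene coverage, and changes of Sfpq and Ncl rows in the EPSC table. For both contrasts the values of these genes are therefore given as descriptions. Where a test over all sites, genes or rows called a member, the call only describes it and is no independent support.

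m6A was measured with GLORI, a chemical conversion in which unmethylated adenosine is read as G while methylated adenosine is still read as A. The level of a site is the fraction of A reads among its A and G reads. TBLC, mouse cells labelled by this abbreviation, were grown in MYCP medium and given control siRNA (siNC, 2 libraries) or siRNA against Virma (siVirma, 2 libraries). VIRMA is a large scaffold protein of the complex that writes m6A. EPSC, labelled likewise, carried dCas13b-FTO, an RNA-targeted inactive Cas13b joined to the m6A eraser FTO, with a control guide (sgCtrl, 2 libraries) or a guide named for Gata6 (sgGata6, 2 libraries); these were deposited as 1 pool per group. TBLC groups differ in the siRNA and EPSC groups in the guide; no other difference is labelled.

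Nuclear speckles are bodies in the nucleus rich in splicing factors, and SON and SRRM2 are the large, repeat-rich proteins that form their core. SRRM1 is a splicing coactivator, and TRA2A and TRA2B bind exonic enhancers and promote exon inclusion. SFPQ is a core protein of paraspeckles, which assemble on the long noncoding RNA Neat1, and NCL (nucleolin) is an abundant nucleolar protein that acts in ribosomal RNA synthesis and processing. Transcripts of Tra2a and Tra2b hold exons whose inclusion limits production of the protein they encode.

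The siNC lists held 4764955 and 4367999 A+G reads over listed sites, the siVirma lists 3423268 and 2655963, and the EPSC pools 964966 and 1044927. Every TBLC list starts at 15 A+G reads, 5 A reads and a level of 0.1, so a site absent from a list did not pass the authors' filters there and has no level. Virma itself had a listed coverage of 40.3 and 38.2 in siNC against 24.0 and 22.8 in siVirma, with no overlap. Whether the 2 libraries of a group are separate cultures is not labelled, so every p-value measures only how these libraries vary, which may be technical variation. Markers of fibroblasts, which serve as feeder cells, moved with the groups. All 12 were listed, and 7 had a coverage in every TBLC list. The summed coverage of these 7, scaled to each library's median gene, came to 346 and 337 in siNC against 516 and 483 in siVirma. Other markers moved the opposite way. Of 15 two-cell-stage markers 12 were listed (all but Tcstv1, Dux and Tmem92). The 7 of these with a coverage in every TBLC list came to 347 and 352 in siNC against 290.1 and 308 in siVirma. The 11 pluripotency markers were all listed, and the 9 with a coverage in every TBLC list came to 1794 and 1807 against 1720 and 1615.

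The members differed widely in the number of m6A sites. Son, on chromosome 16 (mm39 chr16:91451731-91475604, plus strand, first to last listed site), had 69 and 72 sites in the siNC lists and 54 and 50 in the siVirma lists. Srrm2 (chr17:24030937-24043523, plus strand) had 51 and 54 sites in siNC and 19 and 22 in siVirma. By sites listed in both siNC libraries, Son with 60 and Srrm2 with 47 stood at ranks 3 and 7 among 8492 genes, whose median was 3 sites.

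The other members had few sites. Ncl (chr1:86274735-86287099, minus strand) had 11 and 16 sites in siNC and 5 and 5 in siVirma. Sfpq (chr4:126915113-126926430, plus strand) had 5 and 5 in siNC and 2 and 3 in siVirma. Srrm1 (chr4:135048014-135080457, minus strand) went from 3 and 3 to 1 and 1, Tra2b (chr16:22064839-22084676, minus strand) from 4 and 3 to 2 and 3, and Tra2a, with 1 site at chr6:49221631 on the minus strand, from 1 and 1 to none. Every one of the 7 genes except Tra2b had fewer sites in each siVirma list than in each siNC list. The lists as a whole shrank too, from 66350 and 61957 sites in siNC to 41082 and 34739 in siVirma. The share of all genes with fewer sites is not given here, so this is not a trait of the members.

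Of the 130 member sites listed in both siNC libraries, 63 (48.5%) were also in both siVirma lists, 18 were in 1, and 49 (37.7%) were in neither. Of all 49554 sites listed in both siNC libraries, 47.1 percent were in both siVirma lists and 33.1 percent in neither. These include sites that name no gene. As a set the members were thus near the background. The 2 large genes differed: Son kept 38 of 60 sites (63.3%) in both lists and lost 15, whereas Srrm2 kept 17 of 47 (36.2%) and lost 24 (51.1%). By the number of lost sites Srrm2 ranked 1 and Son 5 among the 8492 genes. Ncl kept 4 of 11 and lost 5, Sfpq kept 2 of 5 and lost 2, and Tra2b kept 2 of 3 and lost 1. Srrm1 kept none of 3 in both lists, with 2 in a single siVirma list, and the only Tra2a site was lost.

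**Figure D1:**
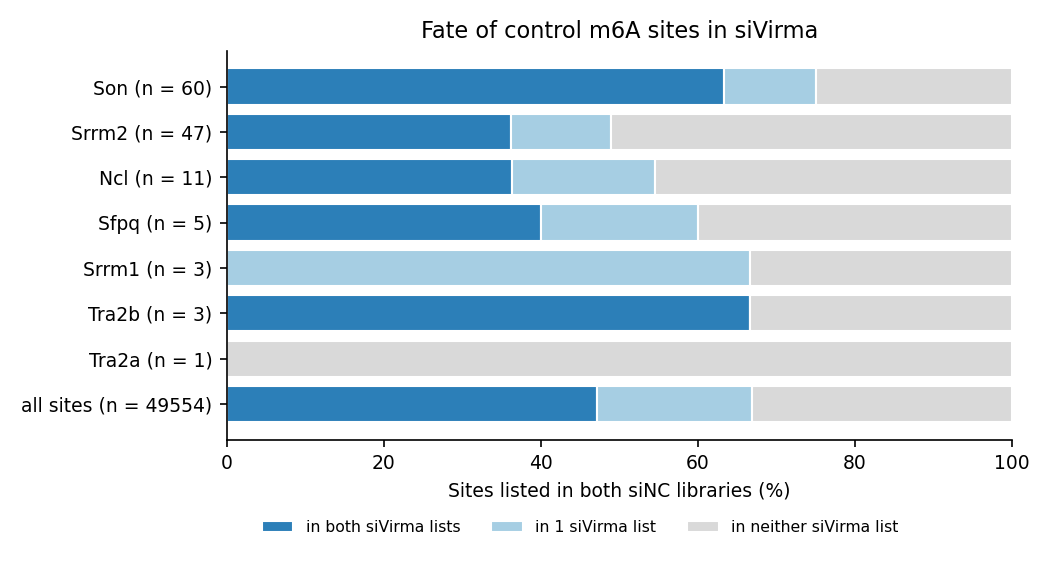
Share (percent, x axis) of the sites listed in both siNC libraries that were in both, 1 or neither siVirma list, for each gene and for all sites (number of sites in brackets). Son keeps 63.3% and Srrm2 36.2%, on either side of the 47.1% over all sites.

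The lost member sites were those with low control levels. Their mean siNC level ran from 0.111 to 0.368 with a median of 0.153, against 0.211 to 0.966 and a median of 0.547 for the kept sites. Over all sites the median of the lost ones was 0.215, and they reached a level of 1. None of 45 member sites with an siNC level of 0.1 to 0.2 was in both siVirma lists (2.83% over all sites). From 0.2 to 0.3 it was 6 of 20 (12.2% over all sites), and from 0.3 to 0.5 it was 21 of 29 (72.4%, against 42.0% over all sites). All 36 member sites above 0.5 were kept, where between 75.2% and 92.7% of all sites were kept.

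Read depth moves with these shares. The median A+G reads in siNC were 135.5 at kept member sites and 45.5 at all kept sites. With at least 50 reads in both siNC libraries, the shares from 0.3 to 0.5 were 82.6% for the members (19 of 23) and 67.8% for all sites. From 0.5 to 0.7 they were then 100% and 98.3%. Srrm2 had 19 of its 47 sites between 0.1 and 0.2 and Son 15 of its 60. Between 0.3 and 0.5 Son kept 14 of 17 and Srrm2 6 of 9. Whether the 2 genes lose sites at different rates at equal level and depth was not tested.

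Levels could be compared at the 63 member sites listed in all 4 libraries and covered by 20 or more A+G reads everywhere: 38 in Son, 17 in Srrm2, 4 in Ncl, 2 in Sfpq, 2 in Tra2b and none in Srrm1 or Tra2a. Of these, 62 had a lower mean level in siVirma. At 61 both siVirma levels lay below both siNC levels, which was so at 94.8 percent of the 20414 sites measured this way. The edgeR test over all these sites had 60 member sites among those that fell (91.6 percent of all sites) and 1, in Tra2b, among those that rose (0.147 percent of all sites). The median change was -0.31 for the member sites and -0.33 for all sites, and the median level left in siVirma was 45.6% of siNC against 45.1%. A site below 0.1 in siVirma cannot enter, so both medians describe only sites that stayed listed.

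Summed over these sites, the member reads gave a level of 0.565 and 0.561 in siNC and of 0.272 and 0.270 in siVirma, or 0.563 ± 0.00254 and 0.271 ± 0.00121 (SD, n = 2). The 2 libraries of each group lay close together and the groups far apart. All 5 members with such sites were among the genes that fell, as were 93.8 percent of the 5642 genes tested, and none was among the genes that rose, as were 0.177 percent.

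**Figure D2:**
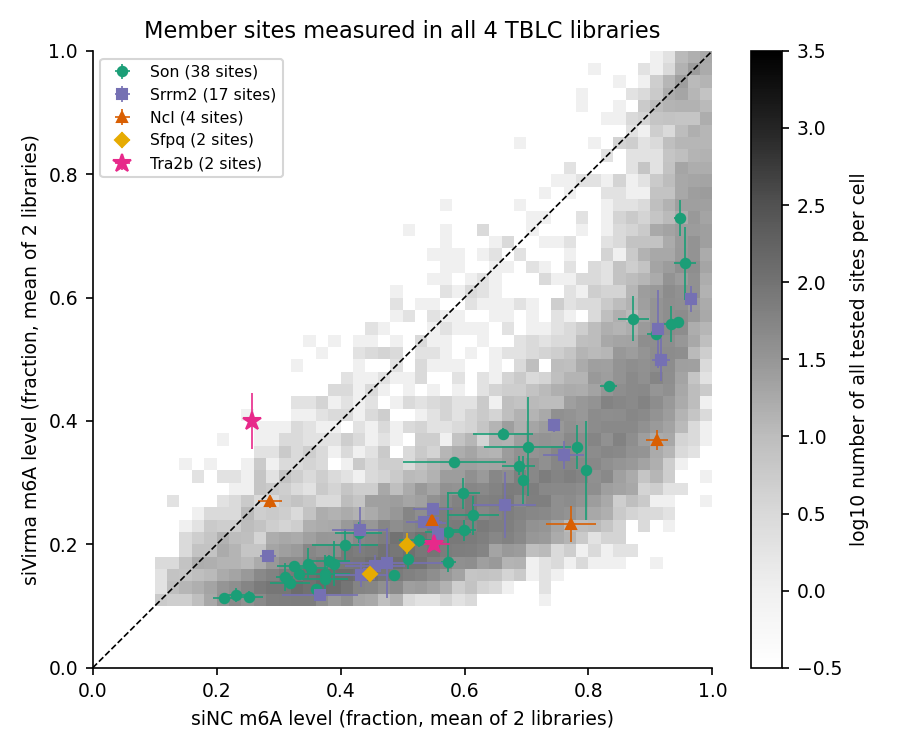
m6A level (fraction) in siNC (x axis) and siVirma (y axis) at the 63 member sites, as means of 2 libraries with bars from the lower to the higher library; grey cells count all 20414 sites on a log10 scale and the dashed line marks equal levels. The members follow the grey cloud below the line, with 1 Tra2b site above it and 1 Ncl site almost on it.

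At the sites they kept, Son and Srrm2 both had lower levels in siVirma. Summed over its 38 sites, Son had a level of 0.535 and 0.546 in siNC against 0.279 and 0.273 in siVirma. Its sites kept between 29.96% and 77.0% of their siNC level, with a median of 46.6%. All 38 were lower in both siVirma libraries than in both siNC libraries.

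The Son site with the highest level in siVirma, chr16:91451855, was at 0.938 and 0.957 in siNC and 0.758 and 0.701 in siVirma, with 138 to 187 A+G reads in each library. It is 124 bases downstream of the first listed Son site, and its 77.0% left compares with a median of 63.9% over 3148 sites of like siNC level (within 0.05). The site with the largest fall, chr16:91460127, was at 0.792 and 0.800 in siNC and at 0.400 and 0.240 in siVirma. It had only 20 to 25 reads per library, and the Wilson 95% interval of its second siVirma level ran from 0.115 to 0.434. Such intervals cover counting error only.

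Srrm2 had a level over 17 sites of 0.594 and 0.598 in siNC against 0.276 and 0.274 in siVirma. The sites kept between 31.9% and 63.9%, with a median of 44.2%. All 17 were lower without overlap, and 16 were among the sites that fell. The exception, chr17:24042358, was at 0.296 and 0.269 in siNC and 0.183 and 0.178 in siVirma, with 26 to 60 reads.

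The largest fall in Srrm2 was at chr17:24037275, with 0.903 and 0.932 in siNC and 0.534 and 0.464 in siVirma. The highest siVirma level was at chr17:24039731, with 0.962 and 0.970 in siNC and 0.619 and 0.577 in siVirma. Both sites are nearly fully methylated in the control and stay above most others in siVirma. The 54.4% and 61.9% left there lie near the medians of 58.5% and 66.2% for all sites of like siNC level. At the other end lay the low sites that vanished: the lost Srrm2 site with the highest control level, chr17:24038244, was at 0.303 and 0.311 in siNC.

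Srrm1 had no site in all 4 lists. Its site chr4:135080457, the first in the direction of transcription, was at 0.226 and 0.122 in siNC and at 0.205 in siVirma replicate 1. Its site chr4:135052378 was at 0.233 and 0.273 in siNC and at 0.25 in siVirma replicate 2. Both rest on 22 to 41 reads per library, and the listed siVirma level lies between the siNC levels. Each is absent from the other siVirma list, which admits no level under 0.1, so the single listed value does not show that the level was kept. The third Srrm1 site, chr4:135048014, at 0.185 and 0.181 with 162 and 138 reads, was in neither siVirma list.

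The lone Tra2a site was at 0.193 and 0.195 in siNC with 140 and 133 reads and was in neither siVirma list. Its absence gives no siVirma value.

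Tra2b held the only member site with a higher mean level in siVirma. At chr16:22084676 the levels were 0.25 (100 reads) and 0.264 (91 reads) in siNC and 0.355 (110 reads) and 0.446 (83 reads) in siVirma. Both siVirma levels were above both siNC levels. The means were 0.257 ± 0.00971 and 0.400 ± 0.0645 (SD, n = 2), so the siVirma level was 156% of siNC.

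This site is one of the values the genes were selected on, and it is an uncommon one: 11 of the 20414 sites had a higher change. Among 1123 sites within 0.05 of its siNC level, 7.21% had a higher mean in siVirma, and the median level left was 52.6%. With siVirma replicate 2 left out its change was 0.0977, and it was not among the sites that rose. Because the site helped to choose the genes, its calls in this and other settings only describe it and are no independent support. The listed conversion rate of Tra2b, a per-gene fraction, came to 0.984 and 0.984 in siNC against 0.990 and 0.988 in siVirma.

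The other Tra2b site listed in all 4 libraries, chr16:22064839, moved the other way. It lies 19837 bases downstream near the end of the listed span. Its levels were 0.577 and 0.525 in siNC and 0.209 and 0.191 in siVirma, with 288 to 368 reads. With 36.3% left it was close to the median of 39.0% for its siNC level. The site at chr16:22084676 is the first listed Tra2b site in the direction of transcription, and 11472 bases separate it from the next. That next site, chr16:22073204, was in siVirma replicate 2 alone, at 0.185 on 27 reads. The sites chr16:22065549 and chr16:22065514 were in siNC lists only. Whether a site is exonic, intronic or in a UTR is not stated, because no annotation of mm39 was used.

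In Ncl a site near the 5′ end also kept its level, without rising, while sites downstream were lower. At chr1:86287086, the second listed site from the 5′ end, the level was 0.306 (445 reads) and 0.266 (379 reads) in siNC and 0.260 (535 reads) and 0.280 (511 reads) in siVirma. The groups overlapped, and 94.3% of the siNC level was left, against a median of 48.5% over 1461 sites of like siNC level. Further downstream, chr1:86278299 was at 0.929 and 0.893 in siNC and 0.352 and 0.385 in siVirma on 618 to 925 reads. Its neighbour 50 bases downstream, chr1:86278249, had the lowest share left in Ncl, 30.2%, going from 0.812 and 0.732 to 0.263 and 0.204. Over its 4 sites Ncl was at 0.705 and 0.650 in siNC and at 0.303 and 0.317 in siVirma.

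**Figure D3:**
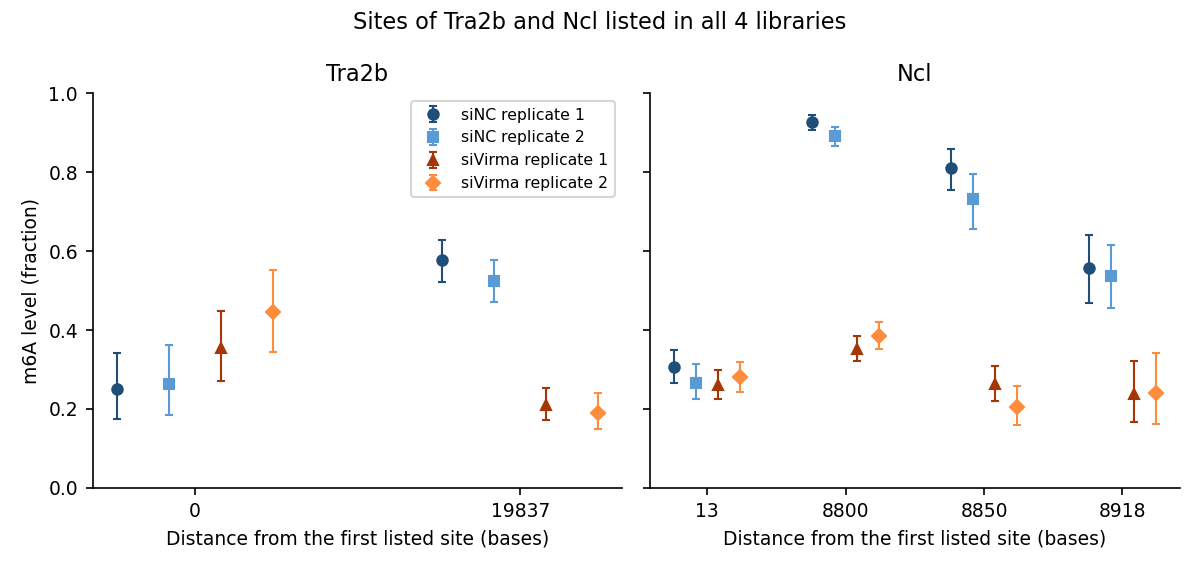
m6A level (fraction, y axis) at the Tra2b and Ncl sites listed in all 4 libraries, ordered by distance in bases downstream of each gene's first listed site; points are libraries and bars Wilson 95% intervals. The Tra2b site at distance 0 is higher in both siVirma libraries and the Ncl site at 13 bases overlaps between groups, while every site further downstream is lower in siVirma.

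The Tra2b site was set beside the first listed sites of other genes. The first listed site of a gene was measured in 1399 genes with at least 2 listed sites, and 8.72% of these sites had a higher mean in siVirma. Among the 17612 other sites of genes with at least 2 listed sites it was 0.375%. These include sites of genes whose first site was not measured, so the shares are not compared within genes. By edgeR 0.572% of the first sites rose and 0.0114% of the others, while the median level left was 44.8% and 44.7%. The Tra2b site is 1 of these first sites. The first listed Son, Ncl and Tra2a sites were in neither siVirma list, and those of Srrm1 and Sfpq were in 1. The first site listed for Srrm2, chr17:24030937, was in siVirma replicate 1 alone, at 0.156 with 32 reads. This comparison was made after the Tra2b value had been seen, the difference between the shares was not tested, and neither was what lies at these sites.

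Of the 5 members with sites in all 4 libraries, Sfpq had the smallest share left. Its site chr4:126916725 was at 0.505 and 0.508 in siNC and at 0.219 and 0.181 in siVirma, with 244 to 343 reads. At chr4:126917197 the levels were 0.447 and 0.447 in siNC and 0.146 and 0.157 in siVirma, with 597 to 758 reads. Summed over both sites, 35.7% of the siNC level was left, where the median gene kept 44.9% (quartiles 38.3% and 53.5%). Part of this goes with the control level. The site chr4:126916725 kept 39.4%, near the median of 38.8% over 2830 sites of like siNC level. At chr4:126917197 33.9% was left, against a median of 41.3% over all kept sites with siNC levels from 0.3 to 0.5. The remaining Sfpq sites were low, between 0.1 and 0.236 in siNC, and 2 of these 3 were in neither siVirma list.

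Son carries 14 listed sites exactly 30 bases apart, from chr16:91453434 to chr16:91453824. Of these sites, 9 and 6 were in the siNC lists and 14 and 13 in the siVirma lists, the reverse of the rest of the gene. Only 3 were in all 4 lists, 9 were in both siVirma lists and a single siNC list, and 1 was in both siVirma lists and no siNC list. Among 4690 genes with at least 6 sites, searched at steps of 3 to 100 bases, 3 had a run of 6 or more sites and none but Son had one as long. The median longest run was 2 sites.

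Where both groups had values, the sites of the run were lower in siVirma, like the others. Median levels were 0.618 and 0.582 in siNC and 0.197 and 0.211 in siVirma. Each median is over that library's own listed sites of the run, so the medians do not cover the same sites. At the start of the run, chr16:91453434 was at 0.964 in siNC replicate 1 and at 0.679 and 0.622 in siVirma. At the end, chr16:91453824 was at 0.335 and 0.414 in siNC and 0.122 and 0.183 in siVirma. Depth differed along with the listing: the median A+G reads at listed sites of the run were 43.0 and 37.5 in siNC and 75.5 and 60.0 in siVirma, whereas the listed coverage of the whole gene was 115, 110, 135 and 117. The sources used here do not give how reads matching several repeat copies were placed, and the part of read placement in these values was not tested. Of the gaps between listed Son sites, 45 of 82 were under 50 bases, the 13 steps of this run included. In Srrm2 it was 24 of 58. Gaps in other genes are not given here.

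**Figure D4:**
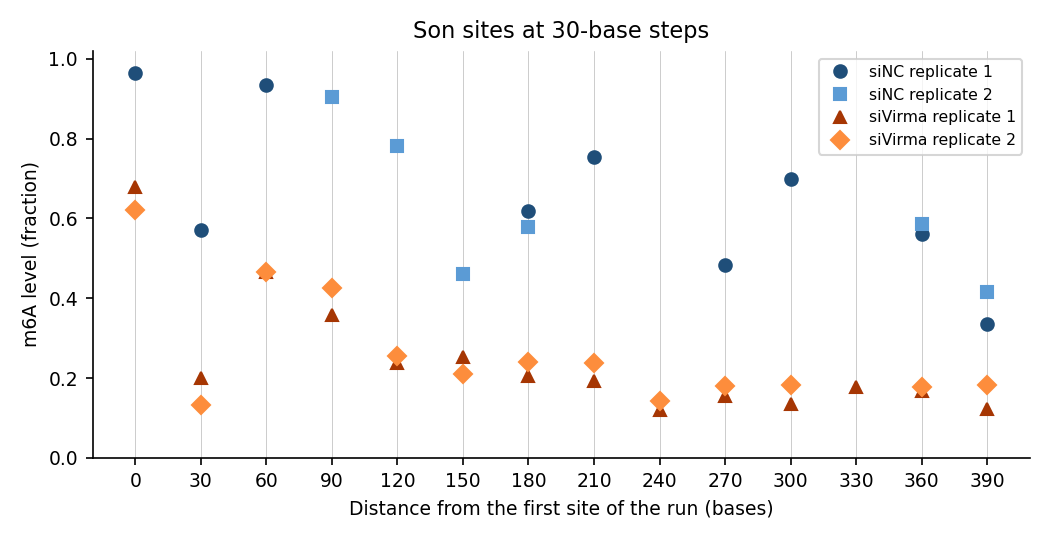
m6A level (fraction, y axis) of each listed library at the 14 Son sites spaced 30 bases apart, by distance in bases from the first site of the run; a missing point means that the site is not in that library's list. Each site has at least 1 siVirma point, many lack 1 or both siNC points, and wherever both groups have points the siNC points lie above the siVirma points.

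Gene coverage, a listed signal for which the sources used here give no unit, changed less than the levels. Srrm2 had 107.9 and 101.1 in siNC and 162 and 130 in siVirma, a 1.24-fold difference after each library was scaled to its median gene. Ncl had 153 and 147 in siNC and 212 and 182 in siVirma, 1.17-fold after scaling. For both genes the scaled siVirma values lay above both scaled siNC values.

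The remaining genes with values differed less. The scaled siVirma values still lay above both scaled siNC values in Sfpq and below both in Srrm1 and Tra2b. They overlapped only in Son. The share of all genes whose scaled values separate in this way is not given here. Son, at 115 and 110 in siNC and 135 and 117 in siVirma, had a scaled ratio of 0.9997. Sfpq, at 132 and 127 in siNC and 166 and 137 in siVirma, had 1.03. Srrm1 went from 64.2 and 60.3 to 73.9 and 58.9 (0.945), and Tra2b from 68.6 and 70.8 to 78.3 and 65.2 (0.913). Tra2a, at 147 and 145 in siNC, has no siVirma value because a gene without a listed site has none.

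In the limma fit over 6787 genes, 2 of the 6 members with values, Srrm2 and Ncl, were among those with higher coverage (9.15 percent of genes). None was among those with lower coverage (12.4 percent). Gene coverage helped to choose the members, so their calls in this and other settings only describe them and are no independent support. Srrm2 was not called without siVirma replicate 1, nor was Ncl without siNC replicate 1, siNC replicate 2 or siVirma replicate 1. The scaling removed a shift of 0.17 on the log2 scale, and without it Son, Srrm1 and Tra2b, slightly lower or equal here, were slightly higher in siVirma (log2 differences of 0.17, 0.08 and 0.04). In bulk samples fewer cells of a type and less RNA per cell cannot be told apart. Of the markers tested, 6 of 7 fibroblast markers were among the genes with higher coverage, and 3 of 7 two-cell-stage and 2 of 9 pluripotency markers among those with lower coverage. Their part in the members' values was not tested.

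The listed conversion rate of the members was 0.974 to 0.990 in siNC and 0.984 to 0.991 in siVirma. It was lowest in Son, at 0.974 and 0.974 in siNC and 0.984 and 0.984 in siVirma. Over all genes the medians were 0.981 and 0.981 in siNC and 0.988 and 0.988 in siVirma, so the rate moved with the groups, and its part in the level differences was not tested.

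The members were set beside 103 other genes of the same compartments. Of these, 78 had sites in all 4 libraries, 72 fell and none rose by edgeR at an adjusted p of 0.05, and the median level left was 45.5%. Among SR proteins, which bind enhancers as TRA2 proteins do, 7 of 8 fell, with Srsf4 going from 0.831 to 0.457 and Srsf5 from 0.411 to 0.208. All 22 SR-related and other speckle genes fell, among them Luc7l3 (0.832 to 0.357) and Rbm25 (0.549 to 0.207), as did all 6 kinases of SR proteins, with Srpk1 going from 0.570 to 0.240 and Dyrk1a from 0.867 to 0.451.

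Among paraspeckle and related genes, the group of SFPQ, 8 of 9 fell, with Neat1 going from 0.544 to 0.257 and Tardbp from 0.545 to 0.273. Among hnRNP genes, whose proteins often oppose SR proteins, 17 of 19 fell, with Hnrnpa0 going from 0.654 to 0.387 and Pcbp1 from 0.538 to 0.242. Among nucleolar genes, the group of NCL, 12 of 14 fell, with Nop2 going from 0.721 to 0.329 and Nolc1 from 0.570 to 0.233.

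Among those that did not pass were Srsf1, Bop1, Fbl, Hnrnpa2b1 and Hnrnpab, each with a single tested site. In Srsf1 and Bop1 this was the first listed site of the gene. Unlike the first Tra2b site it was lower in siVirma, at 0.164 in siNC and 0.118 in siVirma for Srsf1. For Bop1 the levels were 0.278 and 0.166. In Fbl and Hnrnpa2b1 it was not the first listed site, and in Hnrnpab it was the only one. The Hnrnpa2b1 level was 0.281 in siNC and 0.287 in siVirma.

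These genes hold 607 sites listed in both siNC libraries, of which 275 (45.3%) were in both siVirma lists. The most in 1 gene were 24 in Neat1, of which 15 were lost, and 21 in Scaf11, of which 7 were lost. Both fall short of the 60 sites of Son and the 47 of Srrm2. Coverage of these genes was higher for 4 of 82 and lower for 6 by limma. The largest difference was in Neat1, at 280 and 280 in siNC and 157 and 143 in siVirma, or 0.477-fold after scaling.

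Of the 19342 EPSC rows, 94 match a listed member site: 41 in Srrm2, 40 in Son, 8 in Ncl, 3 in Sfpq, 2 in Tra2b and none in Srrm1 or Tra2a. Control levels of the 2 cell types could be set side by side. Across 76 member sites measured in both, siNC and sgCtrl levels had a Pearson r of 0.933 and a Spearman rho of 0.879, and across 8033 sites of all genes they had 0.919 and 0.880. These points share genes and base context and were not tested. The rising Tra2b site and the Ncl site at chr1:86287086 have no EPSC row.

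With at least 20 reads in both pools, 82 member rows could be compared, and 52 were lower and 30 higher in sgGata6. The median difference was -0.03, and over all 10185 rows it was -0.01 with 53.1% lower. Son had 22 of 31 rows lower, with a median of -0.07, and its reads summed to a level of 0.383 in sgCtrl and 0.337 in sgGata6. Srrm2 had 21 of 39 lower, and its summed level was 0.271 and 0.268. Over all 10185 rows the summed level was also lower, at 0.319 in sgCtrl and 0.294 in sgGata6. Each pool is a single value, so these differences have no replicate check.

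By Fisher's exact test on pooled reads, which compares the pools and not the conditions, 1 of the 82 member rows was among those changed, as were 0.275 percent of all rows. It is the Sfpq site chr4:126926430, at 0.128 (10 of 78 reads, Wilson 95% interval 0.0712 to 0.220) in sgCtrl and 0.405 (34 of 84, 0.306 to 0.512) in sgGata6. The intervals do not overlap. Changes of Sfpq rows helped to choose the genes, so this call and these intervals only describe the site and are no independent support. In TBLC the same site was low, at 0.161 and 0.1 in siNC, and it was in neither siVirma list. The other Sfpq rows were at 0.438 and 0.366 in sgCtrl and at 0.352 and 0.342 in sgGata6, with overlapping intervals.

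Ncl rows differed little. The lowest difference among listed sites was at chr1:86277923, from 0.190 to 0.139 on 21 and 36 reads. The highest was at chr1:86278662, from 0.135 to 0.206 on 37 and 34 reads. The strongly methylated site chr1:86278299, which lost most of its level in siVirma, was at 0.880 in sgCtrl and 0.885 in sgGata6.

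A further 20 EPSC rows lie within the members' spans and are in no TBLC list, 13 lower and 7 higher in sgGata6. One of them, chr1:86284027 within Ncl, is among the changed rows, at 0.176 (21 of 119 reads) in sgCtrl and 0.0260 (4 of 154) in sgGata6. It was named after its values were seen, and its assignment to Ncl rests on position and strand alone.

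**Figure D5:**
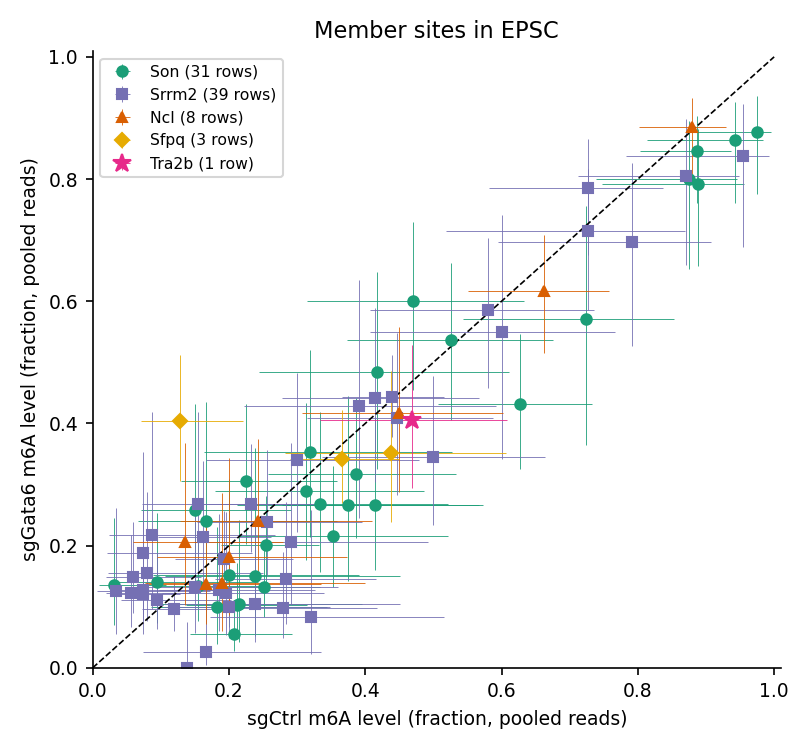
m6A level (fraction) of the 82 member rows in the sgCtrl pool (x axis) and the sgGata6 pool (y axis), with Wilson 95% intervals as bars; the dashed line marks equal levels. Points scatter on both sides of the line, and the Sfpq site at 0.128 and 0.405 stands farthest above it.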

How the data were processed

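GLORI libraries were made from mRNA, per the labels' protocols. The build mm39 comes from the submitters' processing notes; the sources used here name no aligner or site caller. Per the file headers, the deposited TBLC lists give A and A+G read counts per site, a level and a per-gene conversion rate (each a fraction), a coverage signal per gene, and the authors' p-value, which entered only through their own filter. The deposited EPSC table holds A counts and A+G coverage pooled per group. Groups came from the sample titles.

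Sites in all 4 lists with at least 20 A+G reads were tested with edgeR 4.0.16 (R 4.3.3; quasi-likelihood test on A and G counts, a term per library, Benjamini-Hochberg adjusted p of 0.05 over all sites), as were reads summed per gene. The 6.14% to 7.70% of listed sites that name no gene entered the site test and the shares and levels given for all sites. They were left out of values per gene. Where sites had no variance between libraries, it was offset from 0. Coverage was tested with limma 3.58.1 on log2 values centred per library, for genes listed in all 4. EPSC reads were tested with Fisher's exact test (scipy 1.17.1). Fits were tested on simulated data.

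The members and lists were chosen with earlier results of these data known. Named were all members, their sites with the largest fall and the highest siVirma level, those higher in siVirma, the extreme Sfpq and Ncl rows in EPSC, and the 2 lowest-p genes of each list; other sites were chosen after their values were seen. One gene of the lists is not reported here. No sequence is printed, since no genome of this build was used here.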

Additional observations from a re-analysis of the deposited data

How the results depend on the processing

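With a minimum of 50 A+G reads, 8504 sites fell and 10 rose, and 3108 genes fell and 3 rose, from fewer tested. Leaving out each library in turn gave 10 to 24 sites that rose, 4 to 9 genes that rose, 15 to 580 genes with higher coverage and 10 to 785 with lower coverage, the lowest coverage counts being without siVirma replicate 1. Without centring 30 genes had lower coverage. A minimum of 50 reads gave 85 changed EPSC rows. Counting sites in either siVirma list, the members kept 62.3%. The level change of all members was -0.292, -0.287 as an unweighted mean of sites, and -0.298 to -0.280 with a library left out; without Son's 30-base run, an alternative chosen after seeing the data, it was -0.292. The change of the Ncl site at chr1:86287086 ran from -0.0358 to 0.00334 with a library left out, turning sign without siNC replicate 1. The causes were not tested.

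The replicate block gave 18693 sites that fell, 30 that rose, 5293 genes that fell and 10 that rose, but 1306 genes with lower coverage and 832 with higher. Same-numbered libraries share only a number: their deviations correlated at 0.0084 for levels and 0.14 for coverage. Of 138 further values of single genes and sites under alternatives, 116 stayed within the spread between libraries or the counting interval (levels and shares), or kept direction and side of the threshold (coverage). The coverage calls of Srrm2 and Ncl were lost in 4 cases, and the Tra2b site at chr16:22084676 was not called without siVirma replicate 2. Besides the Ncl site, coverage differences turned sign for Srrm1 and Tra2b without centring and for Son, which is near 0, in 5 settings. No listed coverage is under 10, so 30 was added as a minimum after seeing the data. With 2 libraries per group, spread is poorly known, and sites near the listing minimums are limited by depth.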
